A study of Homo sapiens with 5 samples.

Results

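The human mitochondrial genome encodes 37 genes, and all 37 were listed in the gene table, out of 33857 genes. They were chosen by chromosome alone, as every listed gene placed on chromosome MT, and comprised 13 messenger RNA (mRNA) genes, 2 ribosomal RNA (rRNA) genes and 22 transfer RNA (tRNA) genes. Poly(A)+ RNA had been sequenced from H9 cells, a line of human embryonic stem cells (hESCs) grown in mTeSR medium on Matrigel. The labels of the 2 mock control samples call them control H9 cells and do not say whether they were transfected. The study calls the cells compared with CFIm25-m by mRNA sequencing both control and mock. It describes its mock controls as 2 clones picked at random after transfection with the empty CRISPR vector. The name mock control is used here after the study. The 3 CFIm25-m samples were 3 edited lines, each grown from 1 clone picked after puromycin selection and each made with a different guide RNA near the start codon of NUDT21, the gene for the cleavage and polyadenylation factor CFIm25. The labels call these samples CFIm25 KO, while the study describes knockdown or mutant lines that keep a shortened CFIm25 protein. The CFIm25-m replicates are called clones 1 to 3 here, and a property of 1 clone cannot be told apart from the effect of its own edit.

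Mitochondrial DNA is transcribed by its own single-subunit polymerase, POLRMT, into long RNAs that run around most of the circle in both directions. Most genes are read in the heavy-strand transcription unit, and MT-ND6 with a set of tRNAs is read in the light-strand unit. The tRNAs lie between most of the mRNAs and rRNAs, and their excision at both ends releases the other RNAs. Most of the mRNAs, but not MT-ND6 in human cells, then receive short poly(A) tails from the mitochondrial poly(A) polymerase MTPAP, not from the nuclear machinery to which CFIm25 belongs. The 13 proteins are subunits of the respiratory chain and ATP synthase, and pluripotent stem cells are known for relying on glycolysis more than most differentiated cells do.

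Several mitochondrial genes end without a full stop codon, which the poly(A) tail then completes. Transcript sequences from GENCODE v44 (lift37), matched by gene identifier, were of the deposited length for all 37 genes. By their annotated ends, 6 of the 13 mRNAs had an incomplete stop. All 37 genes also had the same position in RefSeq GRCh38.p14 as in the deposited table. The last 30 bases of these 6 genes are shown because 4 of them made up more of the mitochondrial mRNA in every clone, as described further on. They are followed by the ends of MT-CO1, the most abundant mRNA, and of MT-ND6, the mRNA of the light-strand unit. The capitals mark the bases of an incomplete stop, or the last codon where the gene length is a whole number of codons. Whether the last codon of MT-CO1 (AGA) or of MT-ND6 (AGG) acts as the stop was not examined.
MT-ND1: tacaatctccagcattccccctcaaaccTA
MT-ND2: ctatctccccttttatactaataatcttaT
MT-CO3: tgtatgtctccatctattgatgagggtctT
MT-ND3: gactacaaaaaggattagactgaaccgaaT
MT-ND4: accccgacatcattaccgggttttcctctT
MT-CYB: taattgaaaacaaaatactcaaatgggccT
MT-CO1: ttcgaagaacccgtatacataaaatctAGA
MT-ND6: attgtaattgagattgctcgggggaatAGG

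The libraries held between 18754108 and 23372391 reads counted to genes. The edited gene was checked first. NUDT21 (chr16:56429133-56452199, hg38) had normalized counts, which are reads divided by a size factor for each library, of 6503 and 6398 in mock control and of 4035, 3281 and 3400 in CFIm25-m clones 1 to 3. It was lower in all clones, with a log2 difference of -0.86 (SE 0.11; adjusted p = 0.0043, limma-trend). All 10 embryonic stem cell markers were detected, the lowest at 852 normalized counts, and their sum was 247243 to 251102 in mock control and 226152 to 229704 in CFIm25-m. The summed levels of 4 endoderm markers were 11.5 to 11.6 and 2.70 to 23.1, those of 5 mesoderm markers (3 listed) 18.4 to 27.0 and 19.0 to 34.6, those of 6 fibroblast markers 15625 to 15984 and 12779 to 15707, and those of 4 neural progenitor markers 13257 to 13966 and 10995 to 14140. Of the markers with enough counts to be tested, none passed, and not all endoderm markers had enough. The sums do not show which marker of a list carries the counts, and the lowest value in the fibroblast list was 0.

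Mitochondrial genes took up a larger part of the library in clone 3 and a smaller part in clones 1 and 2 than in mock control. The higher share in clone 3 was known when these genes were chosen and is given as a description. Their share of all counted reads was 4.37% and 4.34% in mock control, 4.01% in clone 1, 3.998% in clone 2 and 6.76% in clone 3. Clone 3 stood 1.55-fold over the mock control mean, while clones 1 and 2 stood at 0.921 and 0.918 of it. The group means were 4.36% ± 0.026 (SD, n = 2) and 4.92% ± 1.59 (SD, n = 3), so that the difference between groups was smaller than the spread among the clones. Without clone 3 the CFIm25-m mean was 4.004%. With nuclear protein-coding genes as the denominator, the shares were 4.71% and 4.66% in mock control and 4.30%, 4.28% and 7.501% in clones 1 to 3. The exact binomial 95% interval of the share in clone 3 was 6.75% to 6.77%, and such intervals cover counting error only. In bulk RNA, more mitochondrial RNA per cell and less RNA from the nucleus cannot be told apart.

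The 3 classes of gene did not follow each other exactly. The mRNAs took 3.92% and 3.90% of reads in mock control and 3.55%, 3.54% and 6.07% in clones 1 to 3. The rRNAs took 0.430% and 0.417% in mock control and 0.441%, 0.439% and 0.649% in the clones, so that clones 1 and 2 lay slightly above mock control here and below it for mRNA. The tRNAs took 0.0222% and 0.0215% in mock control, 0.0219% in clone 1, 0.0231% in clone 2 and 0.0404% in clone 3. Clone 3 was thus the highest library for each class, at 1.55-fold of the mock control mean for mRNA, 1.53-fold for rRNA and 1.85-fold for tRNA.

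**Figure D1:**
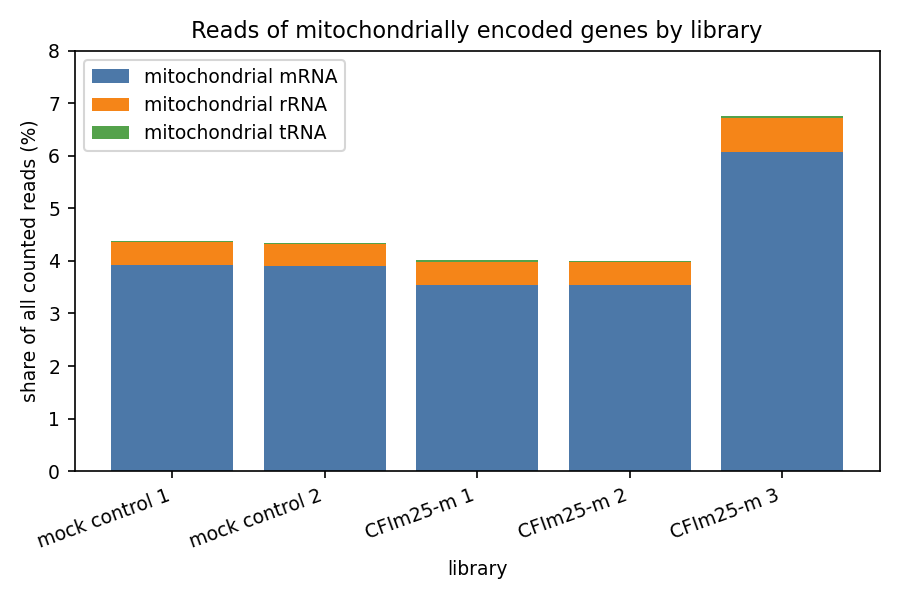
Share of all counted reads (%, vertical axis) that fell on mitochondrial mRNA, rRNA and tRNA genes, stacked, in each of the 5 libraries (horizontal axis); each bar is 1 library, with no error bar. CFIm25-m 3 reached 6.76%, and the other 4 libraries lay between 3.998% and 4.37%.

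The ratio of rRNA to mRNA was 0.110 and 0.107 in mock control, 0.124 in clones 1 and 2 and 0.107 in clone 3. It was higher in clones 1 and 2 than in both mock controls, while clone 3 lay between the mock controls. The ratio of tRNA to mRNA was 0.00566 and 0.00552 in mock control and 0.00618, 0.00652 and 0.00666 in clones 1 to 3, above mock control in every clone. These are poly(A)-selected libraries, in which rRNA and tRNA are recovered only in part, so that neither ratio measures the amounts of these RNAs in the cell. The same holds for MT-ND6, whose mRNA is known to lack a poly(A) tail.

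Levels per kilobase of gene length were highest for the mRNAs of complex IV. In mock control the highest mean normalized count per kilobase was that of MT-CO1 (188776), followed by MT-CO2 (147616) and MT-CO3 (136037), all subunits of cytochrome c oxidase (complex IV). MT-ATP6, a subunit of ATP synthase, came next with 100717. The complex I genes lay lower, from 60595 for MT-ND4 to 27503 for MT-ND5, and MT-CYB of complex III lay at 22841. The 16S rRNA gene MT-RNR2 (52147 per kilobase) was in the range of the complex I mRNAs, and the 12S rRNA gene MT-RNR1 (10889) and MT-ATP8 (10096) were at the bottom. The mock control values did not overlap in any of the 14 neighbouring pairs in this order, and 8 pairs kept the same order in all 5 libraries. MT-CO3 exceeded MT-CO2 in clone 3 only, at 213197 against 175504 per kilobase, and MT-CYB exceeded MT-ND5 in clones 1 and 2.

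Of the 37 genes, 28 reached 10 normalized counts in 2 or more libraries and were tested with all other genes, namely the 13 mRNAs, the 2 rRNAs and 13 of the 22 tRNAs. With all 3 clones, none of the 28 passed the threshold (limma-trend, adjusted p under 0.05), where 1.88% of all 19232 tested genes did. None of the 28 had an unadjusted p under 0.05 either, against 15.1% of all tested genes. edgeR also called none of the 28 (1.81% of all tested genes), with none at an unadjusted p under 0.05 (14.9%), and DESeq2 called none (3.27%), with 1 at an unadjusted p under 0.05 (11.9%). The clones lay on opposite sides of mock control. The higher share of clone 3 was known when the genes were chosen, so the counts that involve it are given as a description. The genes are also cut from shared long RNAs and are not independent of each other. Clone 3 was above both mock controls for 27 of the 28 genes, where 40.7% of all tested genes were, and for 34 of all 37 genes with no filter. MT-TE and MT-TI were under 10 in both mock controls and passed the filter only through clones 2 and 3, where they were high, so that their place above mock control was set by the filter. Without them the count was 25 of 26. Clones 1 and 2 were both below both mock controls for 14 of the 28, against 26% of all tested genes, and clone 3 was above for each of these 14, a pattern shown by 4.38% of all tested genes. No gene was below mock control in every clone (19.8% of all tested genes were) and 2 were above it in every clone (17% of all tested genes were), both of them tRNAs, of which MT-TE entered through the filter as described.

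The median log2 difference from the mock control mean over the 13 mRNAs was -0.19 in clone 1, -0.17 in clone 2 and 0.57 in clone 3, beside medians over all tested genes of 0.00, 0.00 and -0.02. All 13 mRNAs were higher in clone 3 than in both mock controls, by log2 0.25 for MT-CO2 to 0.78 for MT-CYB. The mock controls differed from each other by log2 -0.07 to 0.05 over the same genes. The position of clone 3 was shared by mRNAs of every complex and exceeded the difference between the mock controls for each of them.

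**Figure D2:**
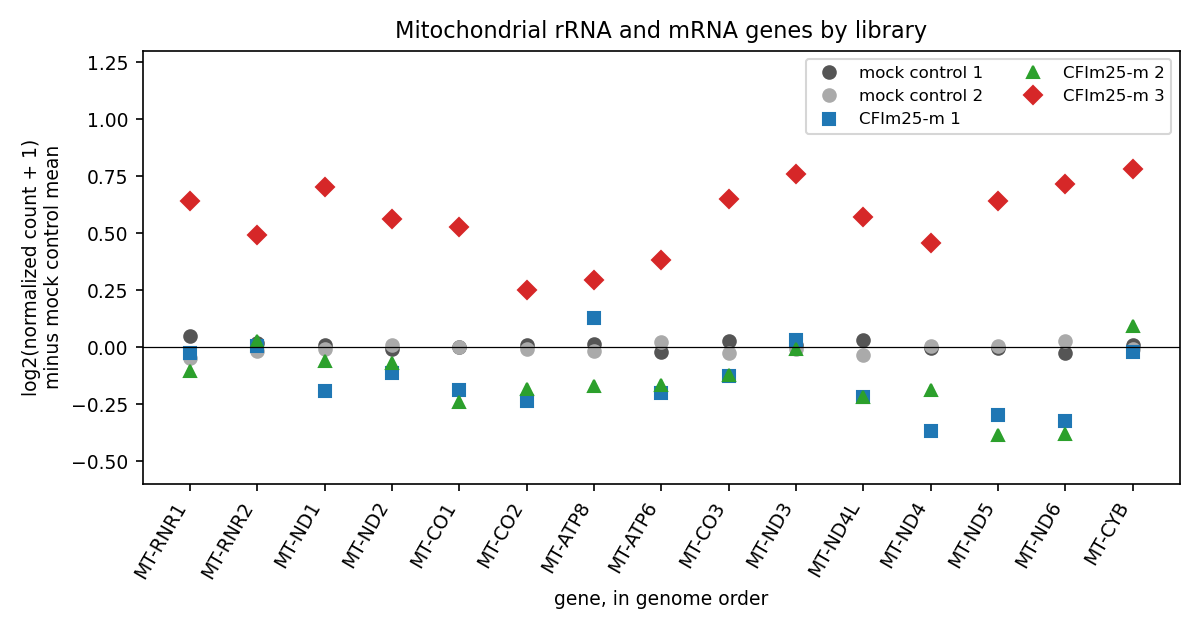
Difference of log2(normalized count + 1) from the mock control mean (vertical axis) for the 2 rRNA and 13 mRNA genes in genome order (horizontal axis); each point is 1 library, and the line at 0 is the mock control mean. All 15 points of CFIm25-m 3 lay above both mock controls, and 10 mRNAs of both other clones lay below them.

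When clone 3 was left out, 7 of the 28 genes were lower in CFIm25-m and none was higher (limma-trend, adjusted p), where 5.56% of all tested genes passed, 2.77% lower and 2.79% higher. At an unadjusted p under 0.05 there were 10 of the 28, against 20.2% of all tested genes. All 7 were mRNAs, and they were subunits of complexes I, IV and V. This comparison was of 2 libraries against 2, and the effect of the edit and of the single clone cannot be told apart. Clone 3 was left out with its higher share already known, and leaving out clone 1 or clone 2 gave 0 genes. The p-values without clone 3, here and below, are therefore given as a description of clones 1 and 2. With clone 3 included, the log2 difference of each of the 7 was between -0.06 and 0.04.

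Complex I, NADH dehydrogenase, takes electrons from NADH and is the complex with the most mitochondrial genes, 7 of the 13. Its subunits took 1.16% of all reads in both mock controls and 1.01%, 1.04% and 1.88% in clones 1 to 3. MT-ND5 (chrM:12337-14148) and MT-ND6 (chrM:14149-14673) meet tail to tail on opposite strands, and among the mRNAs they showed the widest separation between clones 1 and 2 on one side and clone 3 on the other. MT-ND5 had normalized counts of 49732 and 49938 in mock control and of 40575, 38116 and 77712 in clones 1 to 3. MT-ND6 had 16502 and 17106 in mock control and 13417, 12889 and 27614 in the clones. Clones 1 and 2 were lower than mock control by log2 0.30 and 0.39 for MT-ND5, while clone 3 was higher by 0.64. Without clone 3, the differences were -0.34 for MT-ND5 (SE 0.05; adjusted p = 0.0028, limma-trend) and -0.35 for MT-ND6 (SE 0.05; adjusted p = 0.0029, limma-trend), the largest among the mRNAs.

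MT-ND4, a proton-pumping subunit, had 83197 and 83802 normalized counts in mock control and 64683, 73356 and 114658 in clones 1 to 3. MT-ND4L, which is read from the same RNA as MT-ND4, had 16993 and 16232 in mock control and 14255, 14272 and 24664 in the clones. Both were below mock control in clones 1 and 2 and above it in clone 3. Without clone 3 the log2 difference was -0.28 for MT-ND4 (SE 0.06; adjusted p = 0.024, limma-trend) and -0.22 for MT-ND4L (SE 0.05; adjusted p = 0.030, limma-trend).

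MT-ND1 and MT-ND2, the membrane subunits nearest to the rRNA genes, had smaller differences in clones 1 and 2. MT-ND1 had 32273 and 31830 in mock control and 28062, 30740 and 52177 in the clones, and MT-ND2 had 37975 and 38449 and then 35282, 36382 and 56489. Neither passed the test without clone 3, at log2 -0.13 and -0.09. MT-ND3 had 14217 and 14071 in mock control and 14469, 14066 and 23908 in the clones, so that clones 1 and 2 lay close to mock control and clone 3 at 1.69-fold of its mean.

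Complex III passes electrons from ubiquinol to cytochrome c, and its only mitochondrial gene is MT-CYB, for cytochrome b. MT-CYB (chrM:14747-15887) had normalized counts of 26215 and 25909 in mock control and of 25678, 27770 and 44816 in clones 1 to 3. Clone 1 lay below and clone 2 above both mock controls, and clone 3 was 1.72-fold over their mean, the highest ratio among the mRNAs. The difference was log2 0.28 (SE 0.21; adjusted p = 0.55, limma-trend) with all clones and 0.04 without clone 3.

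Complex IV, cytochrome c oxidase, reduces oxygen at the end of the chain, and its 3 mRNAs made up 58.7% to 59.1% of all mitochondrial mRNA reads in mock control and 57.9% to 59.5% in CFIm25-m. MT-CO1 (chrM:5904-7445), for the catalytic subunit, had 290914 and 291270 normalized counts in mock control and 255682, 246639 and 419064 in clones 1 to 3. MT-CO2 (chrM:7586-8269), for the subunit that binds cytochrome c, had 101605 and 100335 in mock control and 85745, 88788 and 120044 in the clones. MT-CO3 (chrM:9207-9990) had 108516 and 104790 in mock control and 97591, 97937 and 167146 in the clones. Clones 1 and 2 were below both mock controls for all 3 genes. Without clone 3, MT-CO1 differed by log2 -0.21 (SE 0.04; adjusted p = 0.017, limma-trend) and MT-CO2 by -0.21 (SE 0.04; adjusted p = 0.021, limma-trend), and MT-CO3 did not pass at -0.13 (SE 0.04; adjusted p = 0.14, limma-trend). In clone 3 the 3 genes parted, with ratios to the mock control mean of 1.44 for MT-CO1, 1.19 for MT-CO2 and 1.57 for MT-CO3.

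Complex V is ATP synthase, and MT-ATP8 and MT-ATP6 are read from one RNA on which they overlap by 46 bases, 22.2% of MT-ATP8 (chrM:8527-8572). MT-ATP6 had 67506 and 69670 normalized counts in mock control and 59605, 61088 and 89281 in clones 1 to 3, and was lower without clone 3 (log2 -0.18, SE 0.04; adjusted p = 0.040, limma-trend). MT-ATP8 had 2112 and 2068 in mock control and 2285, 1855 and 2564 in the clones, and differed by log2 -0.02 without clone 3. The ratio of MT-ATP6 to MT-ATP8 per kilobase was 9.72 and 10.2 in mock control and 7.93, 10.01 and 10.6 in the clones. Although both reading frames lie on one RNA, MT-ATP6 thus had the higher level per kilobase in every library, with the smallest ratio in clone 1. How reads that touch 2 genes were counted is not given in the sources used here, so that the levels of overlapping genes are uncertain. This also holds for MT-ND4L and MT-ND4, which share 7 bases, and MT-ATP6 and MT-CO3, which share 1. It holds as well for short genes that lie close beside others, such as MT-ATP8 and most tRNA genes.

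The makeup of the mitochondrial mRNA was compared as the share of each gene in the reads of all 13. Of the 13 shares, 4 were higher in all 3 clones than in both mock controls and none was lower in all 3. Set against the same mitochondrial mRNA total, 9.53% of all tested genes were higher and 7.32% lower in all 3. That total was below mock control in clones 1 and 2 and above it in clone 3. Dividing by it moves other genes in opposite directions between the clones, which holds down both rates. On normalized counts they were 17% and 19.8%. MT-CYB was 3.09% and 3.06% of mitochondrial mRNA in mock control and 3.48%, 3.73% and 3.67% in clones 1 to 3. MT-ND3 was 1.68% and 1.66% in mock control and 1.96%, 1.89% and 1.96% in the clones. These were the widest of the 4 differences, at 1.13-fold to 1.21-fold of the mock control mean over the 3 clones. MT-CO3 was 12.8% and 12.4% in mock control and 13.2%, 13.2% and 13.7% in the clones, and MT-ND2 was 4.48% and 4.55% and then 4.79%, 4.89% and 4.63%. All 4 genes end in a single encoded T of the stop codon, as printed above, as does MT-ND4. Of the 6 genes with an incomplete stop as annotated, 4 were higher in share in every clone, and of the 7 counted as complete none was. Among the 6, MT-ND4 was 9.81% and 9.91% in mock control and 8.77%, 9.86% and 9.40% in clones 1 to 3. It was thus higher in no clone than in both mock controls. MT-ND1 was 3.81% and 3.76% and then 3.81%, 4.13% and 4.28%, with clone 1 between the mock controls. MT-ATP6 was counted as complete, but the last A of its stop is also the first base of MT-CO3. Its type therefore depends on where the RNA is cut, which was not examined. The 6 genes together made up 35.7% and 35.3% of mitochondrial mRNA in mock control and 36.0%, 37.7% and 37.6% in the clones. This grouping was made after the values were seen, and it was not tested.

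Other shares moved apart between the clones. MT-CO1 made up 34.3% and 34.5% of mitochondrial mRNA in mock control and 34.7%, 33.2% and 34.3% in clones 1 to 3. MT-CO2 was 12.0% and 11.9% in mock control and 11.6%, 11.9% and 9.84% in the clones, and MT-ATP6 was 7.96% and 8.24% and then 8.08%, 8.21% and 7.32%. Clone 3 thus had a smaller part of its mitochondrial mRNA in the stretch from MT-CO2 to MT-ATP6 than any other library. MT-ND5 was 5.87% and 5.91% in mock control and 5.50%, 5.12% and 6.37% in the clones, lower in clones 1 and 2 and higher in clone 3. The ratio of MT-CO1 to MT-CO2 per kilobase was 1.27 and 1.29 in mock control, 1.32 and 1.23 in clones 1 and 2 and 1.55 in clone 3.

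**Figure D3:**
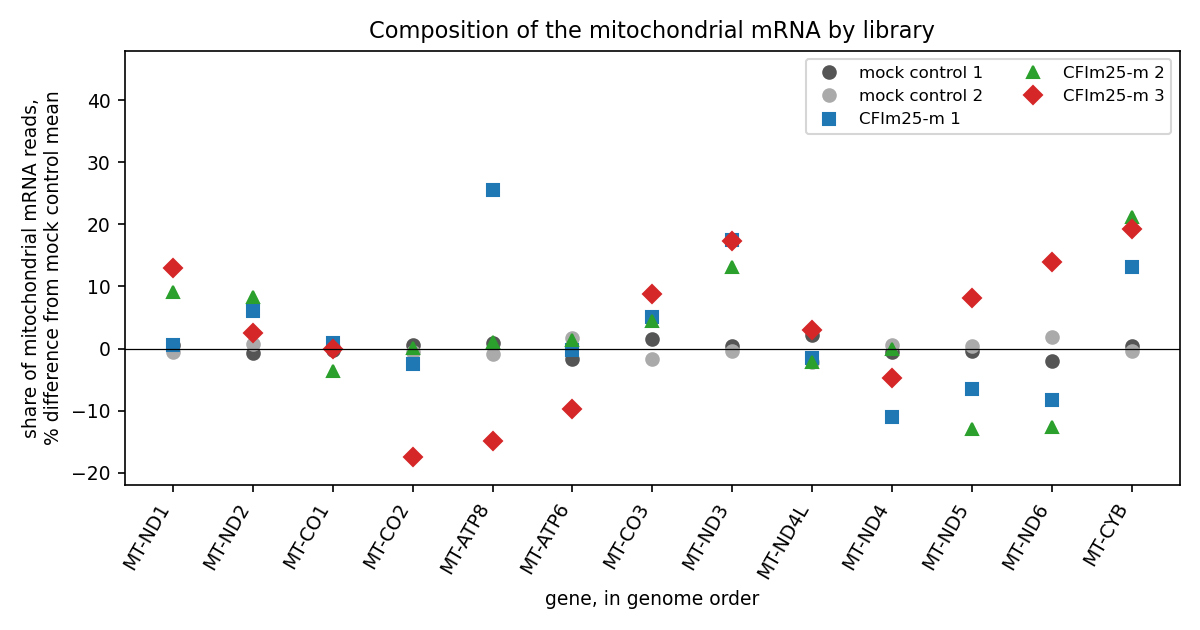
Share of each gene in the reads of all 13 mitochondrial mRNAs, as percent difference from the mock control mean (vertical axis), for genes in genome order (horizontal axis); each point is 1 library. MT-ND2, MT-CO3, MT-ND3 and MT-CYB lay above both mock controls in all 3 clones, while MT-CO2, MT-ATP8 and MT-ATP6 were lowest in CFIm25-m 3.

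The rRNA genes are read at the start of the heavy-strand unit and form the mitochondrial ribosome. MT-RNR1 (chrM:648-1601) had normalized counts of 10724 and 10053 in mock control and of 10196, 9643 and 16202 in clones 1 to 3. MT-RNR2 (chrM:1671-3229) had 82307 and 80287 in mock control and 81538, 82813 and 114188 in the clones. Clones 1 and 2 lay within or close to the mock control range for both, and clone 3 was 1.56-fold over the mock control mean for MT-RNR1 and 1.40-fold for MT-RNR2. Neither passed the test with all clones (log2 0.17 for both; adjusted p = 0.71 and 0.68, limma-trend) or without clone 3 (log2 -0.07 and 0.02). The ratio of MT-RNR2 to MT-RNR1 per kilobase was 4.70 and 4.89 in mock control and 4.89, 5.26 and 4.31 in the clones.

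Reads on tRNA genes were few and were concentrated on 4 genes, which held 88.6% of the tRNA sum in both mock controls and 89.6%, 90.2% and 86.5% in clones 1 to 3. These were MT-TC, MT-TN, MT-TP and MT-TY, for cysteine, asparagine, proline and tyrosine. All 4 belong to the light-strand unit. They are shown with MT-TA, for alanine, which lies beside MT-TN on the same strand and had 0 to 4.01 normalized counts, to set the sequences that took most tRNA reads beside a neighbour that took almost none.
MT-TC: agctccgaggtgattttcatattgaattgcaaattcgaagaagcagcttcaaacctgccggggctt
MT-TN: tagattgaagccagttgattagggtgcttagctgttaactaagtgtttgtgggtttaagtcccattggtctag
MT-TP: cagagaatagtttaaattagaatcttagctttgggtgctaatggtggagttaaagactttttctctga
MT-TY: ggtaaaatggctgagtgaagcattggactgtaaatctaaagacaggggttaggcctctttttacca
MT-TA: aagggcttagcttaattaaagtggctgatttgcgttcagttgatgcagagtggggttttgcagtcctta

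MT-TC (chrM:5761-5826) had normalized counts of 1614 and 1433 in mock control and of 1365, 1693 and 2963 in clones 1 to 3. MT-TN (chrM:5657-5729) had 1285 and 1365 in mock control and 1278, 1508 and 2240 in the clones. MT-TP (chrM:15956-16023) had 1003 and 1046 in mock control and 1171, 849 and 1401 in the clones. Clone 3 was the highest library for all 3, while clones 1 and 2 lay on either side of mock control. MT-TY (chrM:5826-5891) had 348 and 289 in mock control and 269, 327 and 427 in the clones. MT-TC and MT-TN lie on either side of the 31 unannotated bases that hold the origin of light-strand replication. MT-TY is separated from MT-CO1 by 12 bases, and MT-TP is the last annotated gene before the control region. The strand setting of the count is not given in the sources used here. Heavy-strand RNA runs over the same positions, and if strand was not used, its reads and those of the light-strand tRNAs and MT-ND6 cannot be told apart. The tRNA genes are 59 to 75 bases long, and most lie directly beside another gene. A read on a tRNA gene can therefore touch its neighbour too. How such reads were counted is not given, so that the tRNA levels here and below are uncertain.

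The other 9 tested tRNAs had 4.61 to 283 normalized counts. MT-TH, for histidine, had 129 and 137 in mock control and 120, 96.3 and 283 in clones 1 to 3. MT-TR, for arginine, had 100.3 and 93.6 and then 85.2, 91.8 and 194. MT-TT, for threonine and beside MT-CYB, had 28.8 and 20.3 and then 23.1, 30.6 and 119, which made clone 3 4.86-fold over the mock control mean. MT-TG, for glycine, had 45.0 and 41.5 and then 49.1, 45.9 and 119. Of the 11 tRNAs that reached 10 normalized counts in both mock controls, 10 were higher in clone 3 than in both, the exception being MT-TS2, for serine, with 47.3 and 52.1 in mock control and 48.1, 45.0 and 51.9 in the clones. The leucine tRNAs MT-TL1 and MT-TL2 were at 68.5 to 84.1 in mock control, 40.5 to 65.1 in clones 1 and 2 and 100.03 to 120 in clone 3.

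MT-TG and MT-TE, for glutamic acid, were the 2 genes above both mock controls in every clone, of which MT-TE was tested only because of its values in clones 2 and 3. MT-TE had 4.61 and 7.72 in mock control and 8.02, 14.4 and 22.1 in clones 1 to 3, which is few reads in each library (log2 1.08, SE 0.52; adjusted p = 0.36, limma-trend). MT-TI, for isoleucine, which was tested for the same reason, had 4.61 and 7.72 and then 6.01, 13.5 and 20.2. The 9 tRNAs below the filter, MT-TF, MT-TV, MT-TQ, MT-TM, MT-TW, MT-TA, MT-TS1, MT-TD and MT-TK, had 0 to 21.2 normalized counts, and 5 of them had a library at 0. A count of 0 allows up to 3 reads, or 2.70 to 3.46 normalized counts. MT-TD, for aspartic acid, had 5.76 and 1.93 in mock control and 2.00, 9.003 and 21.2 in clones 1 to 3, and MT-TM, for methionine, had 2.31 and 7.72 and then 1.00, 3.60 and 16.4. Clone 3 was the highest library for both, on 22 and 17 reads, and these differences were not tested.

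**Figure D4:**
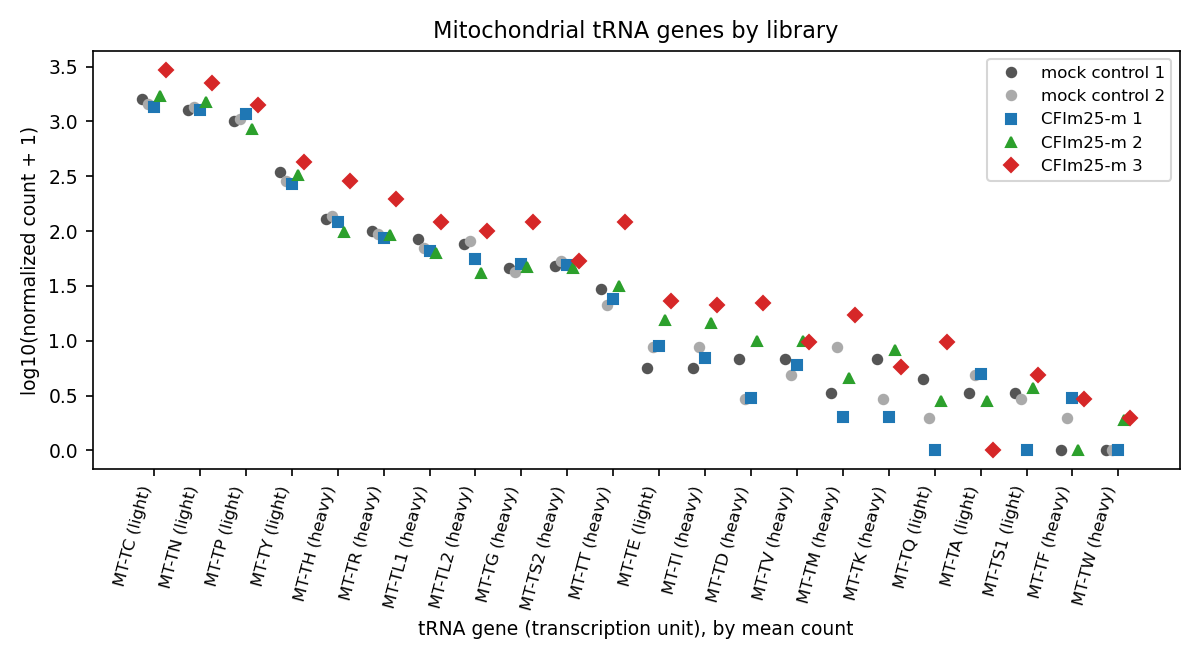
Log10(normalized count + 1) (vertical axis) of the 22 mitochondrial tRNA genes, ordered by mean count and named with their transcription unit (horizontal axis); each point is 1 library. MT-TC, MT-TN, MT-TP and MT-TY of the light-strand unit were the highest, and CFIm25-m 3 was above both mock controls for 10 of the 11 genes that reached 10 normalized counts in both of them.

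The median log2 difference over the 11 tRNAs that reached 10 normalized counts in both mock controls was -0.14 in clone 1, -0.08 in clone 2 and 0.76 in clone 3. In clone 3 it was 1.00 over the 7 heavy-strand tRNAs and 0.61 over the 4 light-strand ones. The ratio of light-strand to heavy-strand tRNA was 7.99 and 8.002 in mock control and 8.86, 9.65 and 6.65 in clones 1 to 3. For mRNA, where MT-ND6 is the only light-strand gene, the ratio was 0.0199 and 0.0206 in mock control and 0.0185, 0.0176 and 0.0232 in the clones. By annotated strand, clones 1 and 2 thus had a higher light-strand part among tRNAs and a lower one among mRNAs than mock control, and clone 3 the reverse. As the strand setting of the count is not given, neither ratio can be read as a measure of light-strand RNA.

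Nuclear genes that run mitochondrial gene expression were mostly close to mock control. Of 90 listed and tested genes for replication, transcription, RNA processing and biogenesis, 1 was higher and none was lower, where 0.941% of all tested genes were higher and 0.936% lower. By role, this was 0 of 21 genes for replication and the nucleoid, 0 of 9 for transcription, 1 of 50 for RNA processing and stability and 0 of 10 biogenesis regulators. Their median log2 difference was 0.02 in clone 1, -0.01 in clone 2 and -0.07 in clone 3.

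The gene that was higher was NGRN, whose protein binds the 16S rRNA and is needed for its upkeep. NGRN had normalized counts of 559 and 643 in mock control and of 863, 962 and 869 in clones 1 to 3 (log2 0.58, SE 0.11; adjusted p = 0.031, limma-trend), and all clones were above both mock controls. The call was lost without mock control 1 (adjusted p = 0.50), mock control 2 (0.18), clone 1 (0.094) or clone 2 (0.082) and kept without clone 3 (0.0070, limma-trend). POLRMT, the polymerase, had 3438 and 3430 in mock control and 3068, 3560 and 3134 in the clones. TFAM, which packages mitochondrial DNA and opens its promoters, had 2703 and 2670 and then 2562, 2271 and 2343 (log2 -0.17, SE 0.09; adjusted p = 0.42, limma-trend). LRPPRC, which with SLIRP protects mitochondrial mRNAs, had 8230 and 8227 and then 7455, 6785 and 7471 (log2 -0.19, SE 0.09; adjusted p = 0.38, limma-trend). Clone 3 was not the highest library for any of these 4 genes. Among the other listed regulators it was the highest for some, such as TK2, ATAD3B, FASTK and MTPAP, and not for others.

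For the other regulators named by rule, log2 differences were between -0.17 and 0.17, and none passed. These were the initiation factor TFB2M (0.02), the elongation factor TEFM (0.17), the partner SLIRP (-0.02), the degradation enzymes PNPT1 (-0.04) and SUPV3L1 (0.11), the poly(A) polymerase MTPAP (0.13) and the RNA granule protein GRSF1 (-0.17). The tRNA-excising enzymes were ELAC2 (-0.15), TRMT10C (-0.05) and HSD17B10 (-0.16), and the replication proteins were POLG (-0.10), TWNK (0.03) and SSBP1 (-0.03). HSD17B10 was lowest in clone 3, with 1016 normalized counts against 1308 and 1381 in mock control and 1285 and 1332 in clones 1 and 2. Chosen after their values were seen, FASTK, a mitochondrial RNA-binding protein that keeps MT-ND6 mRNA stable, differed by log2 0.50 (adjusted p = 0.053, limma-trend), the primase-polymerase PRIMPOL by 0.71 (adjusted p = 0.097, limma-trend) and the coactivator PPARGC1B by -0.47 (adjusted p = 0.090, limma-trend).

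Nuclear copies of mitochondrial DNA moved with the mitochondrial genes in clone 3. Their share of all reads was 0.0311% and 0.0336% in mock control and 0.0304%, 0.0314% and 0.0458% in clones 1 to 3. Of 96 listed copies, 7 were tested and none passed. MTATP6P1, on chromosome 1, had 3464 and 3788 normalized counts in mock control and 3141, 3425 and 4564 in the clones. MTND2P28 had 2105 and 2146 and then 2087, 2026 and 3119, and MTCO1P12 had 905 and 1133 and then 879, 897 and 1197. Clone 3 was the highest library for these 3 and for MTND4P12 and MTCYBP21, at 95.2 and 22.1. In the GENCODE transcripts the first 3 were 98.5%, 98.2% and 98.6% identical over their whole length to MT-ATP6, MT-ND2 and MT-CO1, MTND4P12 was 95.6% identical to MT-ND4, and MTCYBP21 was 65.4% identical to MT-CYB. How reads that match both were assigned is not given in the sources used here, so that the levels of the first 4 copies are uncertain.

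Other classes of reads also differed in clone 3. Genes annotated as antisense, sense-intronic or TEC (a class that awaits experimental follow-up) took 0.558% and 0.548% of reads in mock control and 0.574%, 0.537% and 0.754% in clones 1 to 3, and their median log2 difference was 0.15, 0.05 and 0.42 over 1673 tested genes. RNAs that lack a poly(A) tail took 0.0603% and 0.0547% in mock control and 0.0461%, 0.0235% and 0.0230% in the clones. Of the 35 on that list, 11 were in the table, and RN7SL2, the RNA of the signal recognition particle, made up most of the reads with 13007 and 11831 in mock control and 9554, 4904 and 4583 in the clones (adjusted p = 0.082, limma-trend). SNORD3A, with 5.40 to 23.1, and SCARNA13, with 3.85 to 10.02, were near the filter. Clones 2 and 3 were close to each other for this class. The part of these read classes in the mitochondrial values was not tested.

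**Figure D5:**
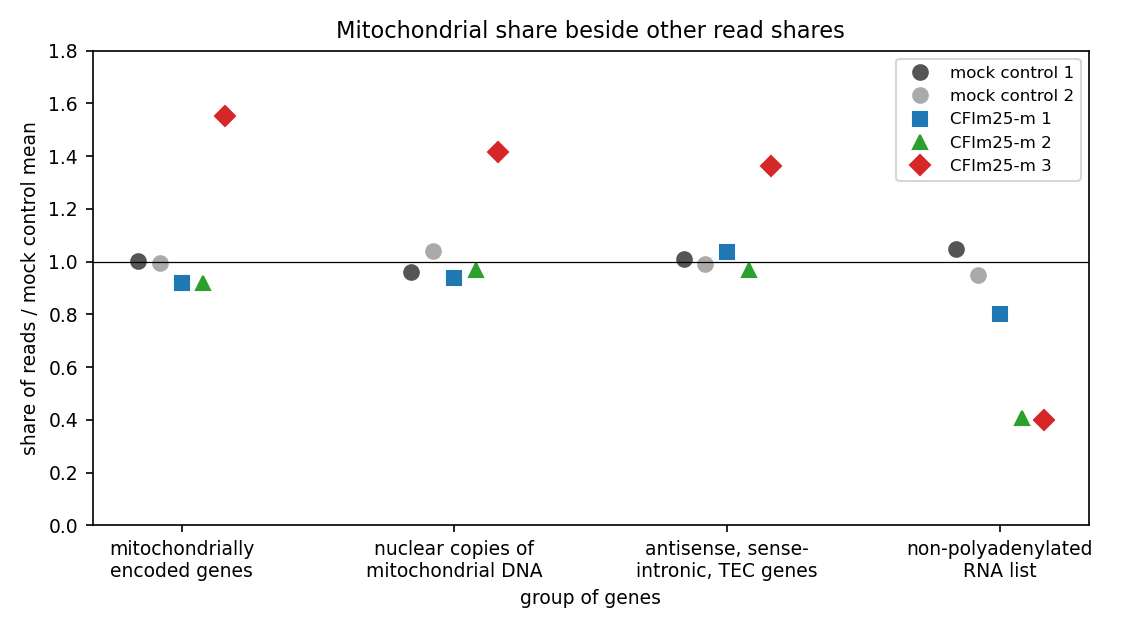
Share of reads divided by the mock control mean (vertical axis) for 4 groups of genes (horizontal axis); each point is 1 library, and the line at 1 is the mock control mean. CFIm25-m 3 was at 1.55 for mitochondrially encoded genes, 1.41 for nuclear copies of mitochondrial DNA and 1.36 for antisense, sense-intronic and TEC genes, while CFIm25-m 2 and 3 were both near 0.40 for the non-polyadenylated list.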

How the data were processed

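Poly(A)+ RNA was selected with oligo(dT) beads and sequenced as paired reads. The authors deposited 1 table with a normalized count, a signal equal to reads divided by a size factor, for each gene and library. The submitters' processing notes name HISAT2, featureCounts of Subread, DESeq2 and hg38; versions, annotation release and strand setting are not given in the sources used here. Columns with the authors' own group means, fold changes and p-values were not used.

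Whole reads were recovered from the step of 1 read in each library (100% of values within 1e-06), which gave shares and depth. Log2(normalized count + 1) of 19232 genes, with at least 10 in at least 2 libraries, was fitted with limma 3.58.1 (trend) in R 4.3.3 and adjusted by the Benjamini-Hochberg method (threshold 0.05). edgeR 4.0.16 and DESeq2 1.42.0 were run on the recovered reads as alternatives. The script was tested on simulated counts.

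Members follow from chromosome MT; they and all gene lists were chosen with earlier results of these data known. Named were every mitochondrial mRNA, rRNA and tested tRNA, regulators past the threshold or central to the pathway, the 5 most abundant nuclear copies, 3 non-polyadenylated RNAs and NUDT21. Shares and ratios were not tested. P-values measure the spread between the single libraries of these clones, and permuting 2 against 3 libraries could not reach 0.05.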

Additional observations from a re-analysis of the deposited data

How the results depend on the processing

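The count of mitochondrial genes past the threshold was 0 under every scaling, filter, pseudocount and variance model tried, and in edgeR and DESeq2, and the smallest adjusted p there and without any library other than CFIm25-m 3 was 0.22. Leaving out 1 library gave 0 to 7 genes, the 7 without CFIm25-m replicate 3. The replicate block gave 6, the same genes without MT-ATP6. The replicate numbers are only names, since deviations of same-numbered libraries correlated at 0.0072 and 0.018, and the block takes up CFIm25-m 3, whose number no mock control has, so that its estimates equal those without that library. Over all tested genes, 361 passed, 46 without the mean-variance trend, 629 in DESeq2, 2107 with the replicate block and 60 to 1069 without 1 library, 63 and 60 without mock control 1 and 2 and 160, 221 and 1069 without CFIm25-m 1, 2 and 3. Of the regulators 1 passed, with 2 under TMM scaling, total scaling, a pseudocount of 5 and DESeq2, 0 without the trend, 10 with the replicate block and 0 to 4 without 1 library, 0 without either mock control or CFIm25-m 1 or 2 and 4 without CFIm25-m 3. NGRN was also lost under scaling to mitochondrial mRNA.

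The sign of the log2 difference turned in 55 of 472 pairs of gene and setting. With the replicate block it became -0.066 for MT-RNR1, -0.25 for MT-TL1, -0.13 for MT-ND1, -0.093 for MT-ND2, -0.00064 for MT-TC, -0.10 for MT-TY, -0.21 for MT-CO1, -0.021 for MT-ATP8, -0.18 for MT-ATP6, -0.13 for MT-CO3, -0.13 for MT-TR, -0.22 for MT-ND4L, -0.30 for MT-TH, -0.35 for MT-ND6 and -0.039 for MT-TP. Scaling to mitochondrial mRNA gave -0.014 for MT-CO1, -0.043 for MT-ATP6, -0.0033 for MT-ND4L and -0.044 for MT-ND6. Total scaling gave 0.012 for MT-CO2, 0.036 for MT-ND4, 0.028 for MT-TS2 and 0.055 for MT-ND5. MT-ND4 was at 0.036 in edgeR and 0.026 in DESeq2, and MT-ND5 at 0.00059 under TMM scaling, 0.090 in edgeR and 0.080 in DESeq2.

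Leaving out 1 library gave log2 differences of -0.18 to 0.11 for MT-ATP6, -0.021 to 0.21 for MT-ATP8, -0.21 to 0.17 for MT-CO1, -0.21 to 0.032 for MT-CO2, -0.13 to 0.26 for MT-CO3, -0.13 to 0.32 for MT-ND1, -0.093 to 0.25 for MT-ND2, -0.28 to 0.14 for MT-ND4, -0.22 to 0.18 for MT-ND4L, -0.34 to 0.17 for MT-ND5, -0.35 to 0.20 for MT-ND6, -0.066 to 0.31 for MT-RNR1, -0.00064 to 0.56 for MT-TC, -0.30 to 0.47 for MT-TH, -0.25 to 0.22 for MT-TL1, -0.039 to 0.32 for MT-TP, -0.13 to 0.46 for MT-TR, -0.11 to 0.030 for MT-TS2 and -0.097 to 0.24 for MT-TY. Differences in mitochondrial share, rRNA to mRNA, tRNA to mRNA and light-strand to heavy-strand mRNA moved by less than 1 SD under the settings tried. The SD was that of the CFIm25-m libraries, 1.59 for the share. CFIm25-m 3 widens it, so this is a loose limit. The difference in share, 0.57 percentage points, became -0.35 without CFIm25-m 3.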
